A study of Mus musculus with 4 samples.

Results

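Cluster 3 is one of 5 clusters, numbered 0 to 4, into which the study's authors divided CD4 T cells from mouse bone marrow by RNA and chromatin accessibility measured in the same cells. Its members were taken from the deposited per-cell table, as the cells of the CD4 set that carry cluster number 3. They were 11 of the 284 CD4 cells from PT-Cy mice (3.87%, exact binomial 95% interval 1.95 to 6.82%) and 156 of the 926 CD4 cells from alloBMT mice (16.8%, interval 14.5 to 19.4%), out of 3587 CD4 and CD8 cells in the series. In the alloBMT library the other 770 CD4 cells were 374 cells of cluster 0, 320 of cluster 1, 42 of cluster 2 and 34 of cluster 4. In the PT-Cy library 238 of the other 273 CD4 cells lay in cluster 2, 31 in cluster 4, 4 in cluster 0 and 0 in cluster 1.

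Both groups of mice were C57Bl/6 recipients of a transplant from C3HSW donors, which held 5000000 bone marrow cells, 500000 CD4 T cells and 500000 CD8 T cells. The PT-Cy group also received cyclophosphamide at 50 mg/kg on days 3 and 4 (post-transplant cyclophosphamide), and the alloBMT group did not. On day 14 the T cells of both lineages were sorted by FACS out of marrow pooled from 4 mice per group, and each pool gave 1 library on the 10X Multiome platform, which reads RNA and accessible DNA from the same cell. The age and sex of the mice were not given in the sources used here, and the pool does not keep single animals apart. With 1 library a group there were no replicates and no test was made: the 95% intervals given are exact and speak of counting error alone, and cells of 1 library are not independent animals.

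CD4 T cells that meet transplanted or host antigen for weeks take up states known as exhaustion, in which inhibitory receptors such as PD-1 and LAG-3 and the nuclear factor TOX are kept high, while stem-like cells keep TCF-1 or LEF-1 and can renew the pool. Regulatory T cells, marked by FOXP3 and CD25, hold other T cells in check. Accessible chromatin is read by a transposase that cuts open DNA, and the number of cuts recovered from a cell depends on how much of its DNA was reached as well as on which sites were open.

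All 1210 CD4 cells of both libraries had at least 1 UMI (a counted RNA molecule) of Cd4, the coreceptor that names the lineage, and 0 had a UMI of Cd8a, so these genes may have been used to select the cells. Cd8b1, the other chain of the CD8 coreceptor, stood at 122 CPM (1000000 times the gene's share of the pooled UMIs) in cluster 3 of alloBMT and 96.3 CPM in the other alloBMT CD4 cells, a log2 ratio of 0.35 (-0.11 to 0.78). With every cell thinned to 1971 UMIs, 25 of 134 cells of cluster 3 had a UMI of it (18.7%, 12.5 to 26.3%) and 91 of 700 others (10.6 to 15.7%), against 52 of 300 in cluster 1 and 34 of 330 in cluster 0; 22 cells of cluster 3 and 70 others were too shallow. Unthinned, the shares were 23.1% in cluster 3 and 20.6% in the others. Cd3e, a chain of the T cell receptor complex, was found in 137 of the 156 alloBMT cells of cluster 3. Cd4 stood at 668 CPM in cluster 3 and 646 CPM in the other alloBMT CD4 cells. Cd3e stood at 904 CPM in cluster 3 and 854 CPM in the others. The 13 B cell markers summed to 40.8 CPM in cluster 3 and 65.7 CPM in the other cells, a log2 ratio of -0.69 (-1.48 to 0.01). The 3 of them with at least 20 counts were all at least 1.5-fold lower in cluster 3, and for 0 of them did the interval exclude equal levels. Red cell markers summed to 206 CPM in cluster 3 and 216 CPM in the others, and monocyte and macrophage markers to 254 CPM in cluster 3 and 274 CPM in the others. The 2 libraries shared 2 cell barcodes, of which 0 were in cluster 3.

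Cluster 3 stood apart from the other CD4 clusters by the amount of accessible DNA recovered per cell. Its alloBMT cells had a median of 2122.5 ATAC counts in peaks, with a range of 1003 to 4573, against a median of 7666 in the other alloBMT CD4 cells, a ratio of 0.277. The medians of the other clusters were 6612 in cluster 0, 8684 in cluster 1, 9528 in cluster 2 and 7720 in cluster 4. In 72 of the 156 cells the ATAC count lay below that of the shallowest other cell, which had 1977. When the 926 cells were ordered by ATAC count and divided into deciles, cluster 3 made up 91 of the 93 cells of the lowest decile, 58 of the 93 of the next, 7 of the 92 of the third, and 0 of the deciles above. The reverse did not hold, since 106 other cells, 79 of them in cluster 0 and 18 in cluster 1, had no more ATAC counts than the deepest cell of cluster 3.

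RNA depth was much closer. The median was 2555.5 UMIs per cell in cluster 3, with a range of 1017 to 8292, and 2809 in the other alloBMT CD4 cells, a ratio of 0.910. Cluster 3 therefore held a median of 0.792 ATAC counts per UMI, against 2.72 in the other cells. Between UMIs and ATAC counts per cell Spearman's rho was -0.00119 over the 156 cells of cluster 3 and 0.394 over the 770 other cells. Both measures came from the same droplets. The ATAC counts spanned 1003 to 4573 in cluster 3 and 1977 to 30682 in the other cells. Over all alloBMT CD4 cells, median UMIs were 2524 in decile 1 of ATAC counts, 2669 in decile 8 and 5703 in decile 10. Cluster 3 lay only in the lower deciles, and rho at matched depth was not computed. The values of rho therefore cannot show whether the assays were less coupled in cluster 3. The table's weights for the RNA and the ATAC data of each cell, which sum to 1, also differed: the median RNA weight was 17.1% in cluster 3 and 47.5% in the others. It was 47.3% in the 106 shallow other cells, which had a median of 3824 ATAC counts and 2695 UMIs.

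**Figure D1:**
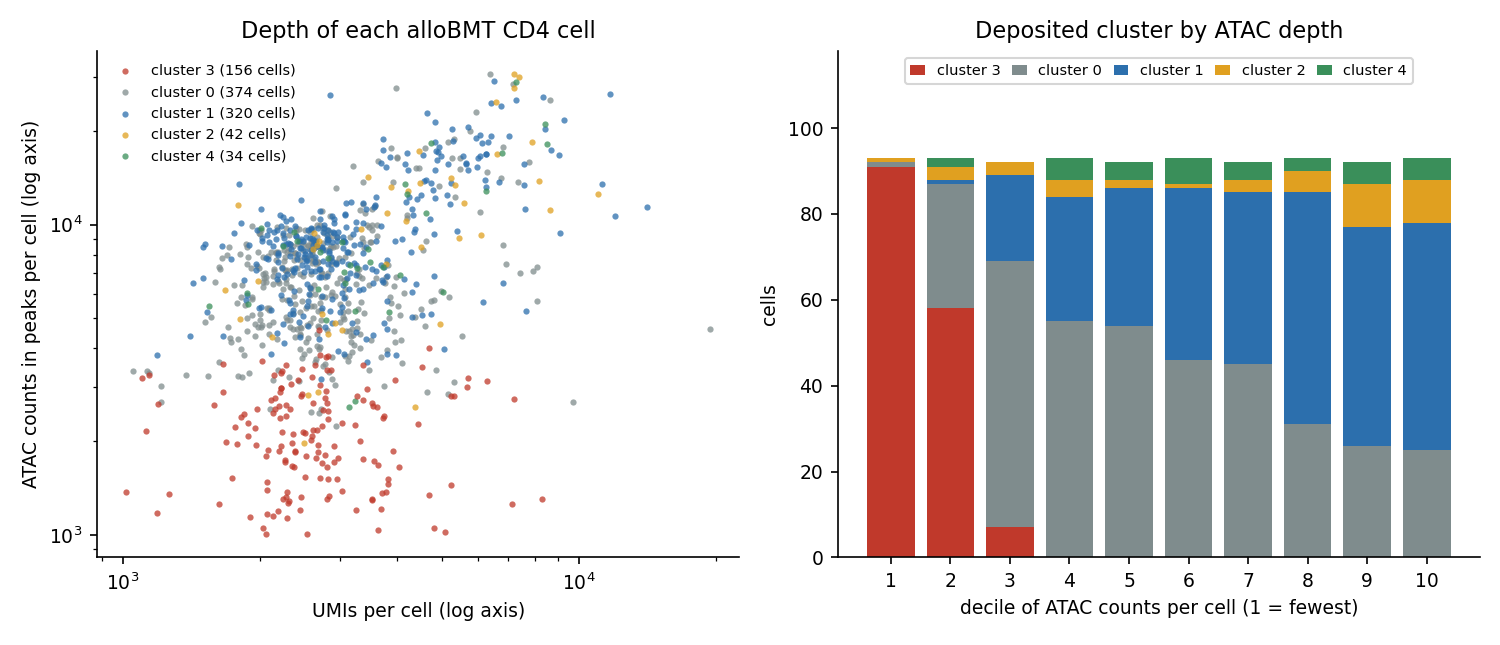
Left, ATAC counts in peaks per cell against UMIs per cell for the 926 alloBMT CD4 cells on log axes, with 1 point per cell coloured by cluster; right, the number of cells of each cluster in each decile of ATAC counts. The 156 cells of cluster 3 lie at 1003 to 4573 ATAC counts, under most other cells, and fill 91 of the 93 places of the lowest decile.

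Measures of library quality did not separate the clusters in the same way. The median share of fragments in peaks was 68.5% in cluster 3 and 66.3% in the other cells, the enrichment of cuts at transcription starts was 5.90 in cluster 3 and 5.39 in the others, and the nucleosome signal was 0.884 in cluster 3 and 0.950 in the others. The median share of mitochondrial UMIs was 3.61% in cluster 3 and 3.69% in the others, and that of intronic reads 45.4% in cluster 3 and 45.5% in the others. The part of depth in the authors' clustering was not tested. The same pattern of depth was found in the PT-Cy library, where the 11 cells of cluster 3 had a median of 1750 ATAC counts (range 1125 to 3534) and the other CD4 cells 4211, a ratio of 0.416. Low ATAC depth was not particular to this cluster. CD8 cluster 1 of alloBMT, with 357 cells, had a median of 2449 ATAC counts (range 1003 to 29750) and 2982 UMIs. Over all 1865 alloBMT CD8 cells the medians were 7841 ATAC counts and 3170 UMIs.

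By pooled RNA, cluster 3 was close to the average of the other alloBMT CD4 cells. The comparison drew on 441465 UMIs in cluster 3 and 2586502 in the other cells. A gene was counted as different at a 2-fold ratio of CPM with at least 100 counts over both sets, and since the clusters were made from these same values the counts are a description. Of 5115 genes, 2 were at least 2-fold higher (0.0391% of genes) and 48 were at least 2-fold lower (0.938% of genes) in cluster 3. The interval lay wholly above 0 for 3.79% of genes and wholly below 0 for 3.93%, and for 0 of the 2 higher and 3 of the 48 lower genes did it lie wholly beyond 2-fold.

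The 2 genes past the fold were Furin, a protease that cuts precursor proteins in the Golgi, and Ing4, a reader of methylated histone H3 in an acetyltransferase complex. Furin had 77 counts in cluster 3 and 197 in the other cells, or 174 CPM in cluster 3 and 76.2 CPM in the others, a log2 ratio of 1.19 (0.80 to 1.58). Of those 77 counts, 26 came from 1 cell and 24 from another. Without these cells the log2 ratio was -0.30 (-0.93 to 0.29), so the higher level of Furin rested on 2 of 156 cells. Ing4 had 35 counts in cluster 3 and 98 in the others, or 79.3 CPM in cluster 3 and 37.9 CPM in the others, a log2 ratio of 1.06 (0.46 to 1.64). No cell of cluster 3 held more than 2 UMIs of Ing4, and without its top 2 cells the log2 ratio was 0.91, with an interval above 0. In the PT-Cy library neither gene stood out, as Furin had 3 counts in cluster 3 and 140 in the other cells, and Ing4 had 0 counts in cluster 3 and 24 in the others.

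The promoters of both genes are printed because accessibility there can be set beside their RNA. Each run is the 250 bases before the annotated start in RefSeq (build GRCm38.p6), with the ETS core letters CGGAAG, searched on both strands, in capitals; these letters are held by 37.3% of the 4094 promoters of tested genes, in windows that also reach 50 bases past the start.
Furin, chr7:80402813-80403062, minus strand: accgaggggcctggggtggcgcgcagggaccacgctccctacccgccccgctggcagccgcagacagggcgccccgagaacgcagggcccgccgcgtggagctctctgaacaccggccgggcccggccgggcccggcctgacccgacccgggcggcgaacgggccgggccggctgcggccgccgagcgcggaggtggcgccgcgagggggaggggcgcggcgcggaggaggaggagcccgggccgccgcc
Ing4, chr6:125039598-125039847, plus strand: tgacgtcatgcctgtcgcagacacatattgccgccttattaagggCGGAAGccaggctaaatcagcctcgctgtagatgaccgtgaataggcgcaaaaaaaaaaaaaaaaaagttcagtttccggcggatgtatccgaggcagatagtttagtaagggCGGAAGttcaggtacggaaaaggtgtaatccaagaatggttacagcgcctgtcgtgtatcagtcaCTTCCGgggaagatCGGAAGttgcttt
The Ing4 promoter holds the letters 4 times and the Furin promoter 0 times. The peak over the Furin promoter had 16 ATAC counts in cluster 3 and 332 in the other cells, a log2 ratio of -0.10 (-0.92 to 0.62). The peak over the Ing4 promoter had 10 counts in cluster 3 and 283 in the others, a log2 ratio of -0.55 (-1.62 to 0.35). Neither interval excluded equal openness.

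Below the 2-fold line, the genes with the highest lower bounds in cluster 3 were spread over many roles. Il18rap, the accessory chain of the receptor for interleukin-18, had 111 CPM in cluster 3 and 62.6 CPM in the other cells, a log2 ratio of 0.83 (0.33 to 1.29). It stood at 86.2 CPM in cluster 0, 22.9 in cluster 1 and 182 in cluster 2, so the other cells did not share a single level, and 14 of its 49 UMIs in cluster 3 came from 2 cells, without which the log2 ratio was 0.37 (-0.20 to 0.91). Slc44a2, a choline transporter-like protein, had a log2 ratio of 0.75, Gramd3 one of 0.64, and Fam160b1 one of 0.88. The remaining 9 genes chosen by the highest lower bound of their interval included Reep5, which shapes membranes of the endoplasmic reticulum, Anxa2, a membrane-binding annexin, Grk5, a kinase of G protein-coupled receptors, and Pfkp, an isoform of phosphofructokinase. Bach2, a repressor that restrains effector differentiation, had a log2 ratio of 0.67 (0.22 to 1.09), and Eomes, a T-box factor of cytotoxic and exhausted cells, one of 0.45 (0.11 to 0.78).

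The 48 lower genes had a median of 8 counts in cluster 3 and 117 in the other cells. Most were also lower in cluster 3 than in each large cluster, since 32 of them were 2-fold lower than in cluster 0 and 38 than in cluster 1, against 29 for cluster 2 and 26 for cluster 4. Their highest level lay in cluster 2 for 19 of them, in cluster 4 for 17, in cluster 1 for 9 and in cluster 0 for 3. Cenpp, a protein of the centromere, had 2 counts in cluster 3 and 127 in the others, or 4.53 CPM in cluster 3 and 49.1 CPM in the others, a log2 ratio of -3.44; it reached 385 CPM in cluster 2. Kif11, a motor of the mitotic spindle, had a log2 ratio of -1.78 and Cenpf, a protein of the kinetochore, one of -1.90. Lsamp, a cell adhesion protein first known from neurons, had 8 counts in cluster 3 and 262 in the others, a log2 ratio of -2.48. The 262 came from 39 of the 770 other cells (5.06%), with 29 and 26 from single cells. In cluster 3, 4 cells (2.56%) had a UMI of Lsamp. Nav2, a neuron navigator protein, had 11 counts in cluster 3 and 317 in the others, a log2 ratio of -2.30, and stood at 729 CPM in cluster 4, 161 CPM in cluster 0 and 23.8 CPM in cluster 1.

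Some of the lower genes did not follow division or regulatory cells. Gcg, which encodes the precursor of glucagon and of glucagon-like peptides, stood at 13.6 CPM in cluster 3 and 47.9 CPM in the other cells, and at 98.7 CPM in cluster 1. Its 124 UMIs in the other cells came from 31 cells, with 33 and 21 from single cells. N4bp2 had 6 counts in cluster 3 and 121 in the others and a log2 ratio of -1.70 against clusters 0 and 1 alone. Emp3, a membrane protein of the peripheral myelin family, had 23 counts in cluster 3 and 270 in the others, or 52.1 CPM in cluster 3 and 104 CPM in the others. With clusters 0 and 1 alone as the other cells 27 genes were at least 2-fold lower, in place of 48. Without the cells that held a Cd8b1 UMI 45 genes were 2-fold lower and 3 higher, but only 18 of the lower and 1 of the higher were among those found with all cells, of 4268 genes that still reached 100 counts. Against the 106 shallow other cells alone, 3 of 1657 genes were 2-fold higher in cluster 3 and 2 were 2-fold lower. Of these, 0 were among the genes past 2-fold against all other cells, but far fewer genes reach 100 counts there. The 48 lower genes had at most 23 counts in cluster 3 and a median of 117 in all 770 other cells. That comparison therefore cannot speak for them.

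Genes of T cell states stood at about the average of the other cells. Tox was at 5926 CPM in cluster 3 and 5837 CPM in the others, Pdcd1, which encodes PD-1, at 233 CPM in cluster 3 and 222 CPM in the others, and Lag3 at 254 CPM in cluster 3 and 263 CPM in the others. That average hid a spread: Pdcd1 stood at 306 CPM in cluster 1 and 150 CPM in cluster 0, and Lag3 at 426 CPM in cluster 1 and 139 CPM in cluster 0. The exhaustion list of 24 genes had 22 measured members (at least 20 counts), of which 0 were higher by 1.5-fold or more and 1 was lower, and their median log2 ratio was -0.03. Over all 9281 genes with at least 20 counts 6.99% passed that line upward and 13.3% downward, and the median was -0.02.

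Effector and stem-like genes gave the same picture. Ccl5, a chemokine of effector T cells, stood at 5305 CPM in cluster 3 and 5233 CPM in the other cells, Nkg7, a protein of cytotoxic granules, at 2156 CPM in cluster 3 and 1957 CPM in the others, and Gzmb, a granzyme, at 226.5 CPM in cluster 3 and 224.6 CPM in the others. Of 23 measured cytotoxic genes 0 passed 1.5-fold upward and 1 downward, and their median was -0.01. Lef1, a factor of naive and stem-like cells, stood at 142.7 CPM in cluster 3 and 147.7 CPM in the others, and Tcf7, which encodes TCF-1, at 27.2 CPM in cluster 3 and 27.8 CPM in the others. Of 20 measured stem-like and memory genes 2 were higher and 3 lower, with a median of -0.02. Genes of T cell receptor signalling, 27 in all, had 0 members past 1.5-fold in either direction, and so did the 13 genes of the mitochondrial genome. The authors' module scores have no true zero, and their gene sets were not given. Those from RNA also lay close. The median of the exhaustion score (Tex1) was 0.0104 in cluster 3 and 0.0121 in the others. That of the stem-like score (Stem_Like1) was -0.0639 in cluster 3 and -0.0582 in the others. Of the accessibility scores, the median for exhaustion (Tex_Acc1) was 0.0258 in cluster 3 and 0.0392 in the others. It was 0.0281 in clusters 0 and 2, 0.0291 in cluster 4 and 0.0538 in cluster 1. The median of the stem-like accessibility score (Stem_Like_Acc1) was 0.0114 in cluster 3 and 0.0046 in the others. Of 22 measured interferon response genes 0 were higher and 5 lower, with a median of -0.14.

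The B cell list had a median log2 ratio of -1.26 on 3 measured genes, and the neutrophil list one of -0.76 on 2. Among lists with more than 3 measured genes, the largest shifts to lower levels in cluster 3 were those of regulatory T cells and of mitosis. Both of these lost their shift when clusters 2 and 4 were left out. Of 13 measured regulatory T cell genes 1 was higher by that fold and 6 were lower: Foxp3, Il2ra, Ikzf2, Tnfrsf4, Itgae and Dscam. Foxp3, the master factor of these cells, had 1 UMI in cluster 3 and 41 in the other cells, and Il2ra, which encodes CD25, had 0 in cluster 3 and 70 in the others. Ikzf2, which encodes Helios, stood at 378 CPM in cluster 3 and 682 CPM in the others, and at 6094 CPM in cluster 4. The summed level of the list was 1237 CPM in cluster 3, 1732 CPM in the others and 10134 CPM in cluster 4. Of 22 mitosis genes 0 were higher and 10 lower, and their summed level was 718 CPM in cluster 3, 1110 CPM in the others and 5602 CPM in cluster 2. The median log2 ratio of the regulatory list was -0.49, and -0.03 against clusters 0 and 1 alone; that of the mitosis list was -0.50, and -0.05 against clusters 0 and 1 alone. S phase genes differed from mitosis genes in that 4 of 23 were higher and 3 lower, with a median of 0.07.

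**Figure D2:**
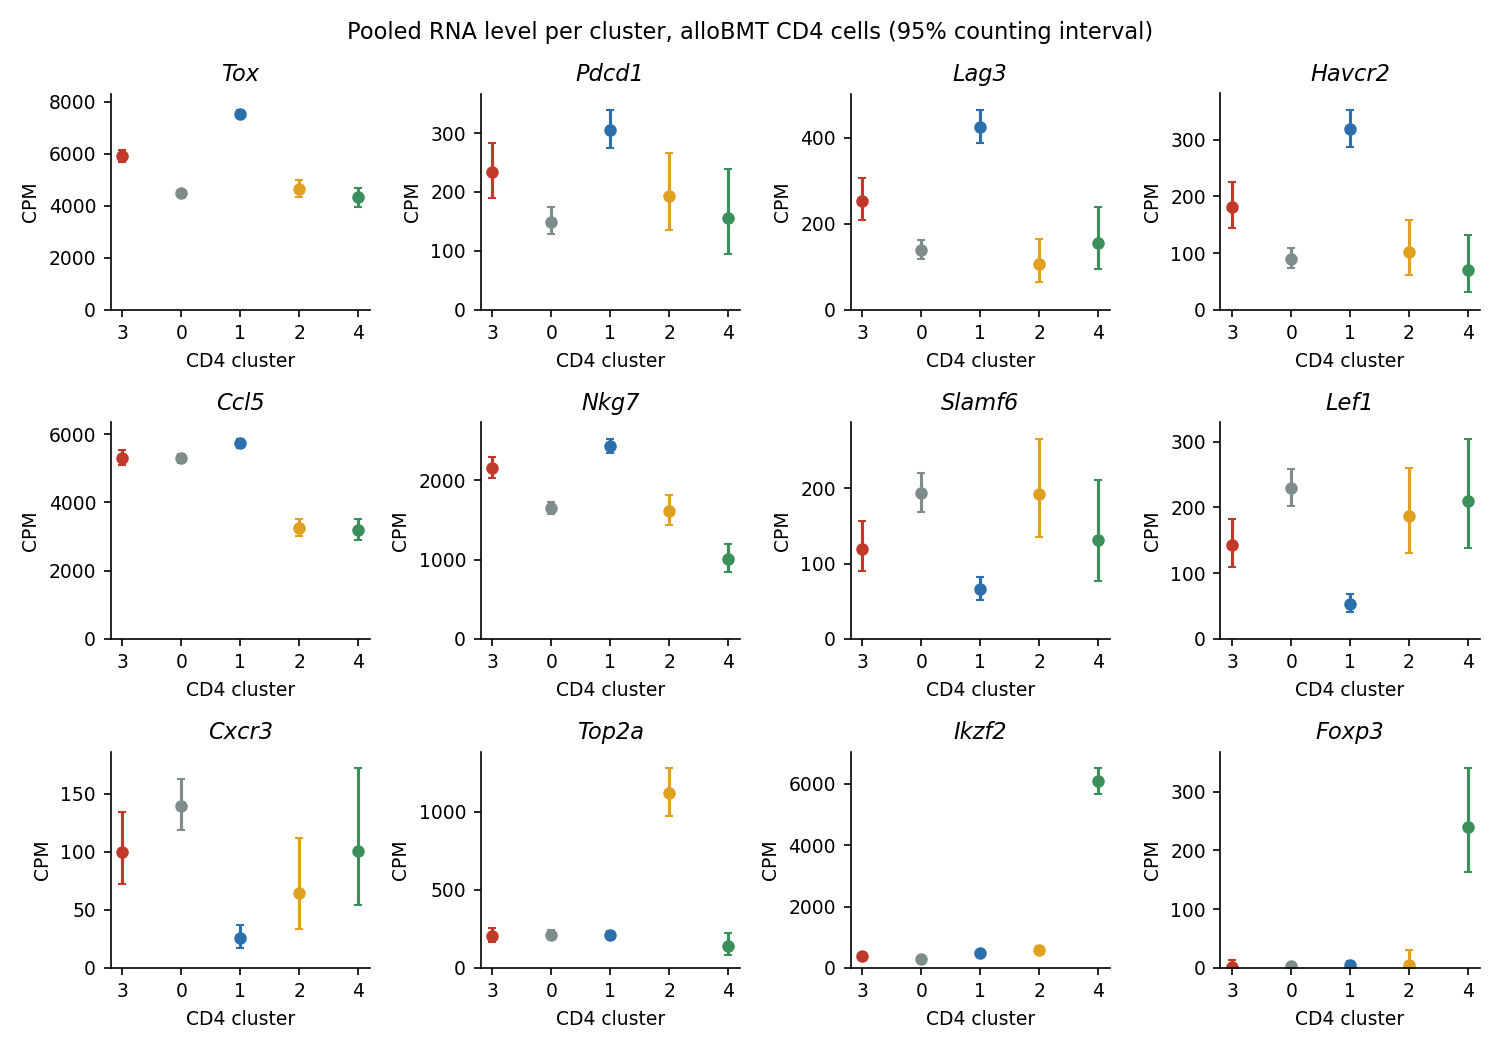
Pooled CPM of 12 genes of T cell states, 1 panel per gene, in cluster 3 and in clusters 0, 1, 2 and 4 of alloBMT; points are the pooled level and bars the exact 95% counting interval, on linear axes from 0. For Tox, Pdcd1, Lag3 and Havcr2 cluster 3 lies between cluster 1, which is higher, and cluster 0, which is lower.

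Cluster 3 was next set against clusters 0 and 1, the large alloBMT clusters. Of 4271 genes tested between them, 70 were at least 2-fold higher in cluster 1 (1.64%) and 76 at least 2-fold higher in cluster 0 (1.78%). Cluster 3 lay between the levels of clusters 1 and 0 for 69 of the 70 genes and for 71 of the 76, or for 95.9% of the 146. The 146 genes were chosen for their gap between clusters 1 and 0, and for such genes a pool near the average tends to lie between. The same share is not given for clusters 2 and 4, so the position is not shown to be particular to cluster 3. Against cluster 0 alone 12 of 3291 genes were 2-fold higher in cluster 3 (0.365%) and 15 lower (0.456%), and against cluster 1 alone 13 of 3301 genes were higher (0.394%) and 11 lower (0.333%). Against the small clusters, 16 of 1387 genes were 2-fold higher in cluster 3 than in cluster 2 (1.15%) and 24 lower (1.73%), and 52 of 1251 were higher than in cluster 4 (4.16%) and 31 lower (2.48%). Those against cluster 4 included Ikzf2 at 378 CPM in cluster 3 and 6094 CPM in cluster 4, and Nkg7 at 2156 CPM in cluster 3 and 1008 CPM in cluster 4. The 70 genes summed to 13752 CPM in cluster 3, 20405 CPM in cluster 1 and 7284 CPM in cluster 0, and the 76 genes to 12259 CPM in cluster 3, 6719 CPM in cluster 1 and 17889 CPM in cluster 0.

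Genes of the cluster 1 side included surface receptors and a metabolite transporter. Klrk1, which encodes the activating receptor NKG2D, stood at 134 CPM in cluster 3, 176 CPM in cluster 1 and 28.2 CPM in cluster 0. Slc16a10, a transporter of aromatic amino acids, stood at 92.9 CPM in cluster 3, 145 CPM in cluster 1 and 17.6 CPM in cluster 0. Ubash3b, a phosphatase that dampens T cell receptor signals, stood at 720 CPM in cluster 3, 1166 CPM in cluster 1 and 312 CPM in cluster 0. For all of these the interval of cluster 3 over cluster 0 excluded equal levels. Tnfrsf9, the costimulatory receptor 4-1BB, stood at 159 CPM in cluster 3, 312 CPM in cluster 1 and 79.2 CPM in cluster 0. Glp1r, the receptor of glucagon-like peptide 1, stood at 40.8 CPM in cluster 3, 83.8 CPM in cluster 1 and 14.1 CPM in cluster 0. Gcg, the gene of its ligand's precursor, lay nearer cluster 0, at 13.6 CPM in cluster 3, 98.7 CPM in cluster 1 and 7.92 CPM in cluster 0, but its 6 UMIs in cluster 3 came from only 2 cells.

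Genes of the cluster 0 side included a chemokine receptor and a transcription factor of stem-like cells. Trat1, an adaptor bound to the T cell receptor, stood at 45.3 CPM in cluster 3, 16.8 CPM in cluster 1 and 115 CPM in cluster 0. Cxcr3, a chemokine receptor of Th1 cells, stood at 99.7 CPM in cluster 3, 25.6 CPM in cluster 1 and 139 CPM in cluster 0. Lef1 stood at 143 CPM in cluster 3, 52.9 CPM in cluster 1 and 229 CPM in cluster 0. In each case cluster 3 was intermediate, and Cxcr3 lay nearer cluster 0. Emb, the cell surface protein embigin, stood at 152 CPM in cluster 3, 39.7 CPM in cluster 1 and 228 CPM in cluster 0. St6gal1, a sialyltransferase, stood at 45.3 CPM in cluster 3, 6.17 CPM in cluster 1 and 83.6 CPM in cluster 0. Nav2 was the gene of this side nearest to cluster 1 among those named, at 24.9 CPM in cluster 3, 23.8 CPM in cluster 1 and 161 CPM in cluster 0.

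**Figure D3:**
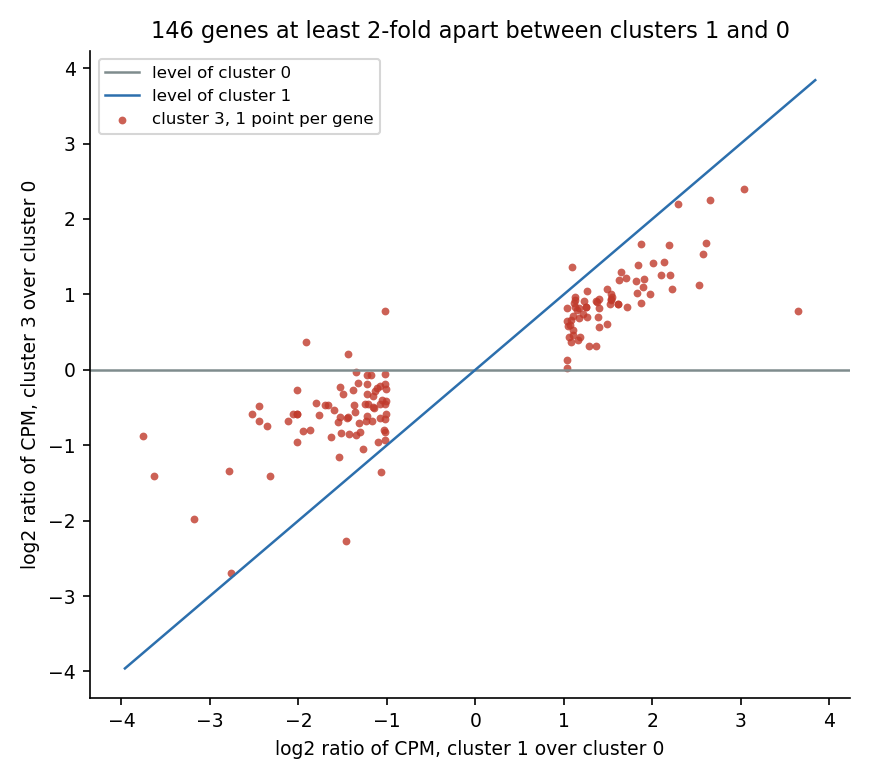
Log2 ratio of CPM of cluster 3 over cluster 0 against that of cluster 1 over cluster 0, with 1 point for each of the 146 genes that differ 2-fold between clusters 1 and 0; the horizontal line is the level of cluster 0 and the sloped line that of cluster 1. The points lie between the lines for 140 of the genes, for example Srgap3 with 387 CPM in cluster 3, 630 CPM in cluster 1 and 143 CPM in cluster 0.

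Accessibility showed the same intermediate position at far lower counts. Of 15603 peaks tested, 191 were at least 2-fold more open in cluster 1 (1.22%) and 105 at least 2-fold more open in cluster 0 (0.673%). Cluster 3 lay between the clusters at 145 of the 191 and at 77 of the 105. The 191 peaks summed to 4540 ATAC CPM (counts scaled to the pooled total in the same way) in cluster 3, 6529 in cluster 1 and 2516 in cluster 0, and the 105 peaks to 2391 in cluster 3, 1452 in cluster 1 and 3388 in cluster 0. At the promoters of 20 genes named from this comparison, the peak's level in cluster 3 lay between the clusters for 12, below both for 4 and above both for 4, on a median of 7.5 counts. A promoter from each side is printed as an example, chosen after its values were seen from the 12; neither holds the letters CGGAAG.
Srgap3, chr6:112947267-112947516, minus strand: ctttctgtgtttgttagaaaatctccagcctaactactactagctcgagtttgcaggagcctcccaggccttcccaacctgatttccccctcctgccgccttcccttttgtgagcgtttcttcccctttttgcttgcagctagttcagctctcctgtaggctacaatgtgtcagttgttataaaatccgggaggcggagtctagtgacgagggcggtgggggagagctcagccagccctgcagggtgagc
St6gal1, chr16:23224490-23224739, plus strand: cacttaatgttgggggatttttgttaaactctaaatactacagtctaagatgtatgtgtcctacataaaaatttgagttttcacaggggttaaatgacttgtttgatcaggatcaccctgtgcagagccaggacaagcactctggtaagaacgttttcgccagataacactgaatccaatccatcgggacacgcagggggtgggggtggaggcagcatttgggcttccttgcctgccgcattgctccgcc
Srgap3 encodes a GTPase-activating protein that acts on the cytoskeleton, and its promoter peak stood, on 6 counts, at 17.5 ATAC CPM in cluster 3, 21.5 in cluster 1 and 10.7 in cluster 0. St6gal1 encodes a sialyltransferase, and its promoter peak stood, on 9 counts, at 26.3 in cluster 3, 13.1 in cluster 1 and 33.8 in cluster 0.

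An intermediate pool can be made of intermediate cells or of a mixture, and single cells were therefore placed on the same axis. An RNA index was taken for each cell, as the share of its UMIs from the 146 genes that came from the 70 genes higher in cluster 1. Its median was 55.4% in cluster 3, with quartiles at 29.6 and 79.7% and a range of 8.82 to 95.5%, against 80.3% in cluster 1 and 29.0% in cluster 0. Of the 156 cells, 37 lay at or above the median of cluster 1, 81 between the medians and 38 at or below the median of cluster 0. Cluster 3 thus covered the span of both clusters in RNA. A wide range was also found in cluster 2, at 5.19 to 85.1% with a median of 26.3%. In cluster 4 the range was 13.6 to 74.4%, with a median of 30.1%. The index of a cell of cluster 3 rested on a median of 63 UMIs, so its spread includes counting error. The 11 PT-Cy cells of cluster 3 had a median index of 27.2%, with a range of 10.6 to 70.4%.

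The accessibility of the same cells, which the index did not use, followed it. Of the ATAC counts at the 296 peaks that differ between clusters 1 and 0, the share at the peaks more open in cluster 1 was 80.5% in the 37 cells of high index (734 counts, 77.5 to 83.3%), 65.7% in the 81 cells between (63.0 to 68.3%) and 34.9% in the 38 cells of low index (367 counts, 30.0 to 40.0%). The share was 81.8% (81.3 to 82.3%) in the whole of cluster 1 and 42.6% (41.8 to 43.4%) in the whole of cluster 0, whose cells were not chosen by index. The low-index cells were below cluster 0 here. With peaks of at least 200 counts they had 58.5%, on 41 counts (42.1 to 73.7%), and cluster 0 had 58.5%. That interval is too wide to tell whether the difference remains. Depth differed little between these cells, with median ATAC counts of 2292 in high-index cells, 2151 in those between and 1947.5 in low-index cells, and median UMIs of 2642 in high-index cells, 2597 in those between and 2455 in low-index cells. The peaks were chosen on clusters 0 and 1, and cells of cluster 3 took no part in choosing them, though the clusters themselves were made from both assays. Without peaks within 10 kb of the index genes the share was 80.7% in high-index and 35.8% in low-index cells, and 82.1% in cluster 1 and 43.5% in cluster 0.

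**Figure D4:**
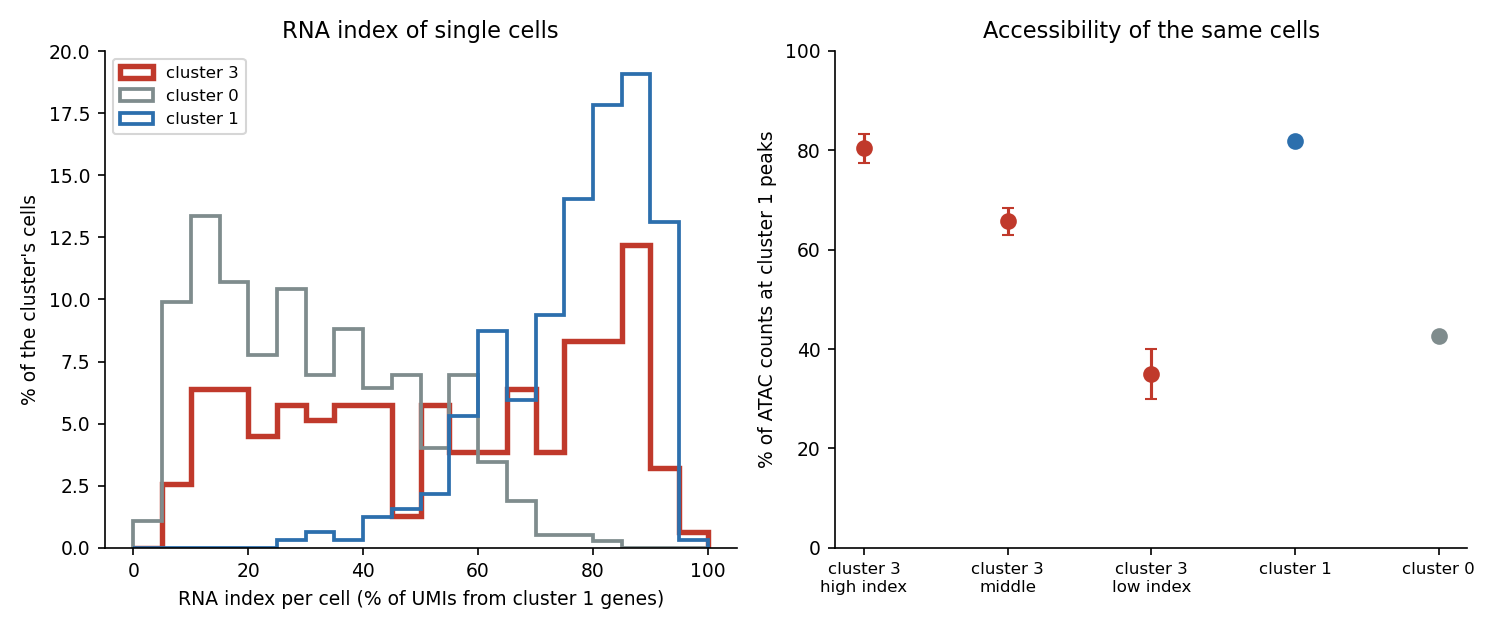
Left, the share of the cells of clusters 3, 0 and 1 in each bin of the RNA index; right, the share of ATAC counts at the 296 peaks that fell in peaks more open in cluster 1, for the cells of cluster 3 split by their RNA index and for clusters 1 and 0, with exact 95% binomial intervals. The share is 80.5% in the 37 cells of high index and 34.9% in the 38 cells of low index, with 81.8% in cluster 1 and 42.6% in cluster 0.

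Genes outside the index followed it too. Of 91 measured genes that were 1.5-fold to 2-fold higher in cluster 1 than in cluster 0, 85 were higher in the high-index than in the low-index cells of cluster 3, with a median log2 ratio of 0.88. Of 88 measured genes that were 1.5-fold to 2-fold higher in cluster 0, 85 were lower in the high-index cells, with a median of -1.19. All 2233 measured genes outside the index divided evenly, with 1053 higher and 1180 lower and a median of -0.03. Tox stood at 8366 CPM in the high-index and 2891 CPM in the low-index cells of cluster 3, a log2 ratio of 1.53 (1.34 to 1.73), and at 7544 CPM in cluster 1 and 4499 CPM in cluster 0. Ccl4, a chemokine, stood at 1260 CPM in high-index and 406 CPM in low-index cells, and Nr4a2, a nuclear receptor induced by T cell receptor signals, at 1029 CPM in high-index and 425 CPM in low-index cells. Ctla4, an inhibitory receptor, was lower in the high-index cells, at 189 CPM in high-index and 454 CPM in low-index cells, a log2 ratio of -1.27 (-2.14 to -0.45). Malat1, a nuclear RNA of nearly all cells, had a log2 ratio of -0.07.

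Peak by peak, cluster 3 could be compared with the other cells only coarsely. The pooled cluster held 342057 ATAC counts and the other alloBMT CD4 cells 6632305, so that the median tested peak had 12 counts in cluster 3 and 225 in the others. Of 17501 peaks, 158 were more open by 2-fold or more (0.903%) and 843 less open (4.82%). The interval excluded equal openness for 132 of the 158 and 215 of the 843, and lay beyond 2-fold for 0 and 1 of them. Over all 17501 peaks it lay wholly above 0 for 454 (2.59%) and wholly below 0 for 278 (1.59%), with a median log2 ratio of 0.001. The excess of less open peaks at 2-fold was therefore not seen in the intervals. With at least 1000 counts over both sets, 0 of 58 peaks passed 2-fold in either direction, and 0 of the 1000 strongest peaks did. Against the 106 shallow other cells 0 of 159 peaks passed in either direction. Only peaks with at least 100 counts over both sets were tested there. The peaks called above had at most 33 counts in cluster 3 if more open and 12 if less open, so that comparison cannot speak for them. Peaks that hold a promoter took 44.3% of the counts in cluster 3, 43.6% in the other cells and 45.0% in the 106 shallow other cells.

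Single peaks are given in the coordinates of the deposited peaks. Among the more open ones, a peak at Rbm20, at chr19:53807064-53808326, had 31 counts in cluster 3 and 260 in the others, a log2 ratio of 1.21 (0.62 to 1.75). A peak 52.4 kb from Lef1 had 28 counts in cluster 3 and 245 in the others, a log2 ratio of 1.15 (0.53 to 1.72). Among the less open peaks, the promoter of Chst14, a sulfotransferase, at chr2:118925825-118927546 had 0 counts in cluster 3 and 170 in the others. A peak at Kcna3, which encodes the potassium channel Kv1.3 of T cells, had 3 counts in cluster 3 and 293 in the others, a log2 ratio of -2.33 (-4.62 to -0.77).

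Summed over each gene with its flanks of 2 kb, accessibility was at least 2-fold higher in cluster 3 at 24 of 12652 genes (0.19%) and lower at 321 (2.54%). The interval lay wholly above 0 at 2.41% of these 12652 genes and wholly below 0 at 2.00%. By gene lists accessibility was flat, as at 1.5-fold 1 of 23 measured exhaustion genes was higher and 1 lower with a median of 0.02, and 1 of 23 stem-like genes was higher and 2 lower with a median of 0.05, against 5.92% higher and 11.4% lower of 15207 genes. The regulatory list, lower in RNA, had a median accessibility ratio of -0.01, and the mitosis list one of -0.06. Over the 4892 genes with both ratios Spearman's rho between RNA and accessibility was 0.0139, across genes that are not independent. The median counts behind these ratios in cluster 3 were 38 for tested RNA genes and 21 for tested loci, so that the value says nothing on whether the assays go together. Of the 45 genes lower in RNA for which accessibility was measured, 25 had an accessibility ratio above 0 and 20 below. Accessibility at the Cd8a and Cd8b1 genes, which CD4 cells keep closed, came to 9 counts in cluster 3, or 28.8% of the level in the alloBMT CD8 cells (13.1 to 54.8%), and to 21.0% of it in the other CD4 cells (17.4 to 25.1%).

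Only 11 cells of cluster 3 came from the PT-Cy mice, with 58427 UMIs and 21990 ATAC counts in all. Their median was 5136 UMIs per cell (range 1212 to 10132), against 3863 in the other PT-Cy CD4 cells. Most genes that differed 2-fold between the libraries among the other cells, and could be measured in cluster 3, differed there in the same direction. Among the other CD4 cells, 284 of 5920 genes were at least 2-fold higher in PT-Cy (4.8%) and 168 at least 2-fold lower (2.84%). These pools of other cells differed in clusters: in PT-Cy 238 of 273 cells were in cluster 2 and 0 in cluster 1. In alloBMT 42 of 770 were in cluster 2 and 320 in cluster 1. Cluster make-up and library are therefore mixed in these ratios, and their parts were not told apart. Of the 126 higher genes that could be measured within cluster 3, 120 were higher in its PT-Cy cells, with a median log2 ratio of 1.33 within cluster 3 and 1.24 among the other cells. Of the 145 measured lower genes, 134 were lower in its PT-Cy cells, with a median of -1.13 within cluster 3 and -1.25 among the other cells. All 4568 genes measured had 2130 higher and 2409 lower. A gene was measured here only with 20 counts over both sets, which with so few PT-Cy cells favours genes that were high in them. Only 126 of the 284 higher genes and 145 of the 168 lower genes were measured. The 120 of 126 is therefore partly set by this rule. Within cluster 3 itself, 24 of 1073 genes that reached 100 counts stood 2-fold higher in PT-Cy (2.24%) and 82 lower (7.64%). The interval lay wholly above 0 for 8.95% of these 1073 genes and wholly below 0 for 13.6%. Against the other PT-Cy CD4 cells, 44 of 2893 genes were 2-fold higher (1.52%) and 253 lower (8.75%), at a median of 9 counts in cluster 3. The interval lay wholly above 0 for 119 of the 2893 genes (4.11%) and wholly below 0 for 99 (3.42%). The excess of lower genes at 2-fold was therefore not seen in the intervals. Only Nav2, Relb, Ankrd52, Nup50 and Tcp1 were 1.5-fold or more apart on opposite sides in the 2 libraries, with both intervals excluding equal levels. Nav2 had 15 counts in PT-Cy cells of cluster 3 and 152 in the other PT-Cy cells, a log2 ratio of 1.03 (0.15 to 1.79), where alloBMT had -2.30. How many of the 11 cells gave those 15 counts was not computed.

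Genes lower in the PT-Cy cells of cluster 3 included Tox and the effector chemokine Ccl5. Tox stood at 2174 CPM in the PT-Cy and 5926 CPM in the alloBMT cells of cluster 3, a log2 ratio of -1.45 (-1.72 to -1.19), against -1.60 among the other cells. Ccl5 stood at 1010 CPM in the PT-Cy and 5305 CPM in the alloBMT cells, a log2 ratio of -2.39 (-2.79 to -2.02), and each of the 11 PT-Cy cells had a UMI of it. Nr4a2 had a log2 ratio of -2.35 and Setbp1, a SET-binding protein, one of -1.98. Among the higher genes, Emp3 had 22 counts in the PT-Cy cells, spread over 8 of the 11, and a log2 ratio of 2.85 (1.94 to 3.76). In other higher genes a single cell gave most of the UMIs, as it did for 22 of the 31 UMIs of Il7r, the interleukin-7 receptor, and for 86 of the 129 UMIs of Ikzf2; their ratios without that cell were not computed. The share of cluster 3 among CD4 cells also differed between the libraries, as given at the start, and with 1 pool of mice a group treatment and library cannot be told apart.

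**Figure D5:**
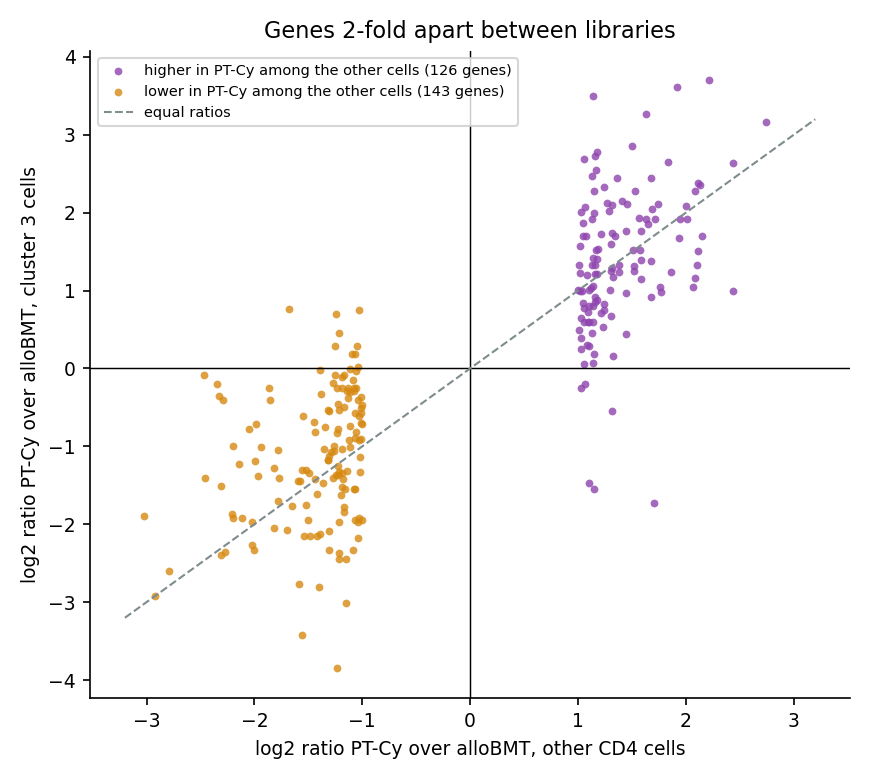
Log2 ratio of PT-Cy over alloBMT within cluster 3 against the same ratio among the other CD4 cells, with 1 point per gene that was 2-fold different among the other cells and measured in cluster 3. Of the 126 genes higher in PT-Cy among the other cells 120 lie above 0 within cluster 3, and of the 143 lower genes drawn, which leave out 2 whose ratio is not defined at 0 counts, 134 lie below 0.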

How the data were processed

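RNA and ATAC were measured in the same cells, 1 library per treatment, each from 4 pooled mice. Per the submitters' processing notes, Cell Ranger ARC 1.0.1 and MACS2 were used and the build is named as GRCh38; genes and peaks are those of mouse, and 51.5% of 32851 RefSeq promoters of GRCm38.p6 lay in a deposited peak, so positions were read on that build. The deposited matrices hold raw UMI counts per gene (32285 genes) and ATAC counts per peak (148283 peaks). The authors' per-cell table gave cluster numbers, count totals, percent of mitochondrial UMIs, fractions (RNA and ATAC weights), ratios such as nucleosome signal, and module scores whose gene sets were not given in the sources used here; 36 of its 58 columns were not used. How doublets were treated was not given in the sources used here, and no doublet caller was run.

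Counts were summed per cluster and library and divided by the pooled total (CPM). Ratios carry exact conditional binomial (Clopper-Pearson) 95% intervals. A feature counted as different at 2-fold with at least 100 counts over both sets, and list members at 1.5-fold with at least 20. Against a pool at 0, ratios are bounds from a floor of 3 counts. Named genes were 15 in each direction, ranked by the bound of the interval nearer to 0, up to 4 members of each of 37 lists, and a set of T cell genes; Bach2, N4bp2, Emp3 and the genes named between clusters 1 and 0 or within the RNA index were picked from those tables after their values were seen. The cells, lists and comparisons were chosen with earlier results of these data known. The procedures were tested on simulated data. The tools were matplotlib 3.10.9, pandas 2.3.3, scipy 1.17.1 and numpy 2.4.6 under Python 3.11.15, and R 4.3.3 with edgeR 4.0.16 (TMM factors) and DESeq2 1.42.0 (size factors) for other scalings. Alternatives were other scalings, minimum counts, sets of other cells and removal of the 5% of cells with the most UMIs; those on shallow other cells, on the top Furin cells, on a minimum of 1000 counts and on the comparison of clusters 1 and 0 were chosen after seeing the data. Some results are not reported here.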

Additional observations from a re-analysis of the deposited data

Results flagged for a closer look

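The difference in RNA depth between cluster 3 and the other CD4 cells ran in opposite directions in the 2 libraries. In the PT-Cy library the ratio of median UMIs per cell, cluster 3 over the other CD4 cells, was 1.33, from 11 cells of cluster 3, and in the alloBMT library it was 0.910, from 156 cells. The difference between these ratios was not tested, since each library is a single pool. ATAC counts per cell were lower in cluster 3 in both libraries.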

How the results depend on the processing

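No paired analysis was possible because each treatment has 1 library. Counts of RNA genes 2-fold higher in cluster 3 (2) became 4 with both libraries pooled and 140 at a minimum of 20 counts. They became 1 at 200 counts and 1 with each cell weighted equally. Those 2-fold lower (48) became 27 against clusters 0 and 1 only, 135 pooled, 515 at 20 counts and 5 at 200. Against the 106 shallow other cells 2 genes were lower, of 1657 that could be tested, which cannot speak for the 48. Peaks more open (158) became 51 when a cell counted once per peak, 804 at 50 counts, 13 at 200, 0 at 1000 and 0 against shallow cells; peaks less open (843) became 2534 at 50 counts, 217 at 200, 0 at 1000 and 0 against shallow cells, where 159 peaks could be tested. The share of genes between clusters 1 and 0 (95.9%) was 100% at 200 counts (81 genes) and 84.3% at 1.5-fold. With peaks of at least 200 counts the accessibility share was 91.0% in high-index and 58.5% in low-index cells (41 counts, 42.1 to 73.7%), with 90.5% in cluster 1 and 58.5% in cluster 0. With a cell counted once per peak it was 88.9% in high-index and 49.2% in low-index cells, with 87.0% in cluster 1 and 54.5% in cluster 0. High-index cells stayed above low-index cells, but their places against clusters 1 and 0 changed, and the cause was not tested. The median accessibility ratio of 3 measured neutrophil genes was -0.77 and reversed to 0.15 with a window of 10 kb. Over the named genes and alternatives, 947 ratios moved by less than their counting interval and 14 by more. Peaks had a median of 12 counts in cluster 3, so the values of single peaks are imprecise.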
